A study of Rattus norvegicus with 6 samples.

Results

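Nitric oxide and arginine metabolism genes were examined in cultured cardiac fibroblasts of newborn rats (NRCFs), taken as primary cells from hearts within 3 days of birth. The group was a list of 10 gene symbols, Nos2, Nos3, Arg1, Arg2, Ass1, Asl, Gch1, Odc1, Slc7a2 and Gucy1a3, looked up by name among the 21857 symbols of the count files. Of these, 9 were measured, and Nos2, the inducible nitric oxide synthase, is not analysed here. The cells, kept in serum-containing medium, received either an empty pcDNA 3.1 plasmid (Vector) or the same plasmid with the rat cDNA of FTO, an m6A demethylase of RNA, and were collected 48 h after transfection. The 3 Vector libraries carry the genotype label WT and the other 3 the label FTO overexpression. The strain label reads Noway, whereas the design text names Sprague-Dawley rats. Nothing in the labels says whether the 3 libraries of a group came from separate cultures, so p-values measure only the spread between these libraries, which may be technical.

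Arginine enters cells through cationic amino acid transporters and is used by competing enzymes. Nitric oxide synthases turn it into nitric oxide and citrulline, with tetrahydrobiopterin as a cofactor, and Ass1 and Asl rebuild arginine from citrulline. Arginases split it into urea and ornithine, the substrate of ornithine decarboxylase in polyamine synthesis and a source of proline for collagen. Nitric oxide acts largely through soluble guanylate cyclase, a dimer that makes the messenger cGMP and is known in fibroblasts and smooth muscle for opposing contraction and fibrosis. Ass1, Gch1 and Slc7a2 are known to rise with Nos2 in cells exposed to inflammatory cytokines.

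The libraries held 13178952 to 17857999 counts each. Levels are CPM, counts relative to the size of each library after TMM scaling, and fold changes are those of the libraries labelled FTO over Vector from the edgeR quasi-likelihood test, with p-values adjusted over 12941 tested genes. Fto itself was at 87.8, 89.6 and 87.4 CPM in the Vector libraries and at 93.2, 90.8 and 92.9 CPM in the libraries labelled FTO. Its log2 fold change was 0.06 (SE 0.0468, adjusted p = 0.239 in edgeR), with a 95% interval of the fold change from 0.976 to 1.12. No rise of the targeted gene was therefore detected, and each direction below is that of the libraries labelled FTO, with no rise of Fto mRNA measured.

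The cell label was checked against marker lists. Fibroblast markers summed to 36849 to 37674 CPM in Vector and 18488 to 19609 CPM in the libraries labelled FTO. Most of that sum was Col1a1 and Col3a1, with means of 25809 and 10699 CPM in Vector. Of the 8 markers, 4 were lower, Col1a1, Col3a1, Tcf21 and Ddr2, and 4 were higher, Dcn, Lum, Pdgfra and Thy1. Their median log2 fold change was 0.09, with values from -1.68 (Col3a1) to 6.90 (Dcn). Markers of other heart cells were present in both groups. Cardiomyocyte markers summed to 1668 to 1700 CPM in Vector and 2588 to 2666 CPM in the libraries labelled FTO, where 6 of 7 were higher and Tnnt2 was lower. Fewer cells of a type and less RNA per cell cannot be told apart in these bulk libraries.

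Of the 9 measured genes, 6 were higher and 2 were lower at an adjusted p under 0.05 in edgeR (libraries labelled FTO against Vector), and Arg2 was not called. Over all tested genes, 65.9% were called, 33.2% as higher and 32.8% as lower, so a call by itself is common here. The 4 genes that also changed at least 2-fold were Ass1, Gch1, Nos3 and Gucy1a3, and 19.6% of tested genes did so. In 8 of the 9 genes no Vector library overlapped the other group in CPM, against 70.3% of tested genes. Ass1 and Nos3 cleared the filter on low counts only through the libraries labelled FTO, which fixes their direction. Of the 7 that cleared it in both groups, 6 were called, against 65.5% of the genes that did so over the whole table. Among these 7, Gch1 and Gucy1a3 changed at least 2-fold, 28.6% against 15.5% of such genes, and the median absolute log2 fold change was 0.61 against 0.33.

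**Figure D1:**
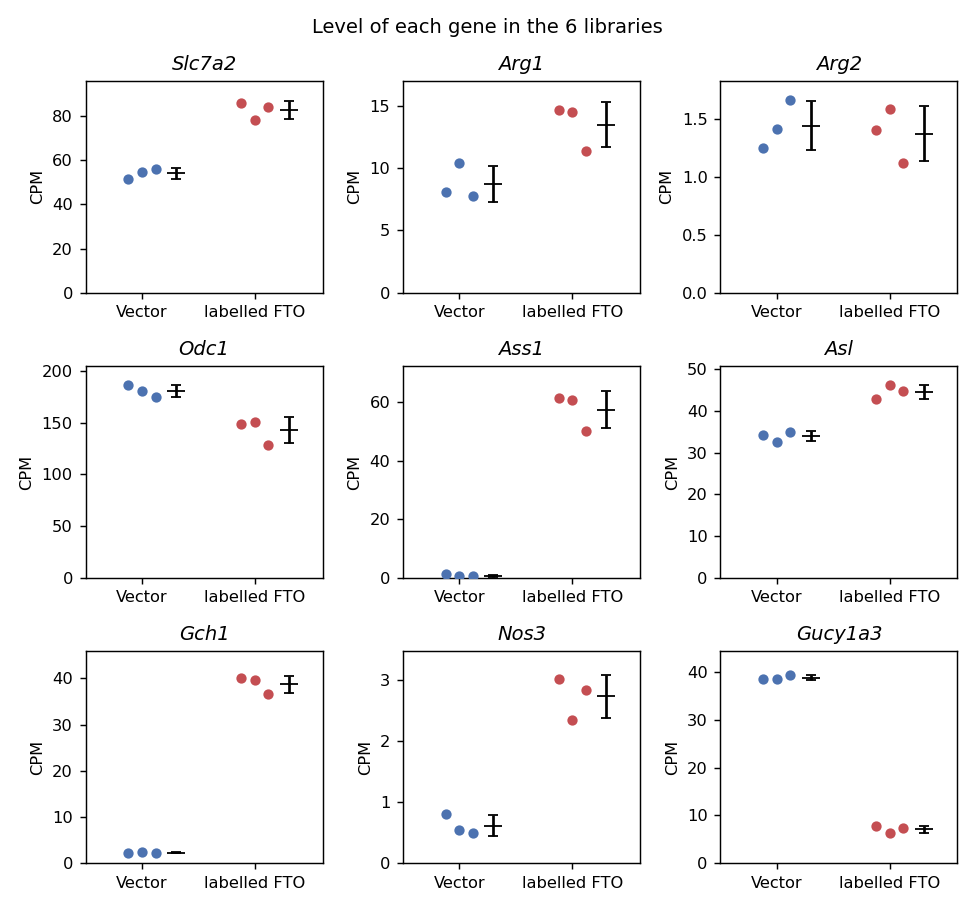
Level of each of the 9 genes in CPM (TMM-scaled, axes from 0 and different for each gene) in the 3 Vector libraries (blue) and the 3 libraries labelled FTO (red), with the mean and SD of each group in black. Ass1 and Gch1 were near 0 in Vector, Gucy1a3 was low in the libraries labelled FTO, and Arg2 is the gene whose groups overlapped.

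The citrulline branch held the largest change. Ass1, argininosuccinate synthase, joins citrulline and aspartate and limits the rate of arginine rebuilding. It was at 1.17, 0.537 and 0.554 CPM in the Vector libraries, from 16, 8 and 8 counts, and at 61.5, 60.6 and 50.1 CPM in the libraries labelled FTO, from 877, 802 and 897 counts. Each library labelled FTO was thus far above each Vector library. The log2 fold change was 6.25 (SE 0.173, adjusted p = 6.4e-14 in edgeR), a 76.0-fold rise with a 95% interval from 58.8 to 98.2, and only 0.610% of tested genes had a larger one. The fold rests on 8 to 16 counts in each Vector library, and its log2 value ran from 6.05 to 6.69 over the alternatives. Since Ass1 cleared the filter only through the libraries labelled FTO, its direction was fixed. RefSeq names 2 Ass1 pseudogenes in the rat, and how reads shared with them were counted is not stated.

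Asl, argininosuccinate lyase, which releases arginine and fumarate in the next step, rose far less. Its level was 34.2, 32.7 and 35.0 CPM in Vector and 42.9, 46.3 and 44.7 CPM in the libraries labelled FTO, with no overlap. Asl had a log2 fold change of 0.39 (SE 0.0636, adjusted p = 6.2e-05 in edgeR), a 1.31-fold rise. Asl overlaps Crcp in the RefSeq annotation, and Crcp was itself 2.04-fold higher (adjusted p = 5.5e-08 in edgeR). Since the use of strand in counting is not stated, reads of the overlapping part cannot be assigned, and the part of Crcp in the rise of Asl was not tested. Within a library the ratio of Ass1 to Asl counts was 0.0221 ± 0.0104 in Vector and 1.29 ± 0.158 in the libraries labelled FTO (SD, n = 3), with no overlap. In an exact 2-sided permutation test over the 6 libraries p was 0.1, also after adjustment over the 5 ratios computed. This is the smallest value that 3 libraries against 3 allow. Ass1 cleared the filter only through the libraries labelled FTO, so the ratio follows its direction and the test is no separate support.

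Tetrahydrobiopterin genes rose with one exception. Gch1, GTP cyclohydrolase 1, catalyses the first and rate-limiting step of tetrahydrobiopterin synthesis. It was at 2.19, 2.42 and 2.15 CPM in the Vector libraries and at 40.0, 39.6 and 36.6 CPM in the libraries labelled FTO. Both groups were narrow and lay far apart. The log2 fold change was 4.10 (SE 0.110, adjusted p = 4.4e-14 in edgeR), a 17.1-fold rise with a 95% interval from 14.5 to 20.1. Only 1.47% of tested genes had a larger one.

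Of the 6 other genes on the tetrahydrobiopterin list, 5 were higher, 0 were lower and Pts was not called. Among all tested genes, 65.9% were called and 33.2% were higher. The median log2 fold change of the list was 0.90, against 0.00 over all tested genes. Spr, sepiapterin reductase, which completes the synthesis, rose from 6.23 ± 0.247 to 23.5 ± 3.79 CPM, means and SDs of 3 libraries (log2 fold change 1.91, SE 0.128, adjusted p = 3.1e-09 in edgeR). The recycling enzymes Qdpr and Pcbd1 changed by 0.70 and 1.84 on the log2 scale, the latter from a mean of 17.7 counts and past the filter only through the libraries labelled FTO. Pts, which performs the middle step, was at 10.2 ± 0.448 and 9.11 ± 1.39 CPM (adjusted p = 0.263 in edgeR). Gchfr, whose product is the feedback inhibitor of Gch1, was also higher, by 1.11 on the log2 scale. The ratio of Gch1 to Spr counts went from 0.362 ± 0.0354 to 1.67 ± 0.220, with no overlap and an exact permutation p of 0.1, the smallest possible.

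The RefSeq promoter windows of Ass1 and Gch1 are printed because these genes changed most, each 250 bases before to 50 after the annotated start in build GRCr8, whereas the submitters' notes name rn6 for the counts. Windows were found for 6 of the 9 genes. Ass1 lies at chr3:35149480-35149779 on the plus strand and Gch1 at chr15:22917363-22917662 on the minus strand, each written 5′ to 3′ along the gene. Capitals mark every match, on either strand, to the CCAAT box (CCAAT), the GC box (GGGCGG) and TATAAA.
Ass1: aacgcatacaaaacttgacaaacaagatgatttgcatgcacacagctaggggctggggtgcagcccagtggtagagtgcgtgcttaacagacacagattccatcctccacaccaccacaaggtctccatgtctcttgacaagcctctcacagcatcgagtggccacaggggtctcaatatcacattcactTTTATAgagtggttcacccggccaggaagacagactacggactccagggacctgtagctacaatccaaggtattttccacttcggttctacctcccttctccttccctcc
Gch1: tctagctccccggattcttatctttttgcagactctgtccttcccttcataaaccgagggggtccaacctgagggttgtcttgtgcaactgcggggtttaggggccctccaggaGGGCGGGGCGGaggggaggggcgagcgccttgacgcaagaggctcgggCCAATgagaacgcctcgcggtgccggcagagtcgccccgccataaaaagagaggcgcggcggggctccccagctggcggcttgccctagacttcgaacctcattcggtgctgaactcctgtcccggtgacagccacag

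In the Ass1 window the single match was TATAAA on the opposite strand, from -60 to -55, and none to the CCAAT or GC box. In Gch1 a CCAAT box lay from -88 to -84 and a pair of overlapping GC boxes from -136 to -126. Over the 33469 windows of the rat table, 14.2% held TATAAA, 37.5% a CCAAT box and 33.1% a GC box, so these matches are common. Sites for cytokine-responsive factors were searched as GGGNNNTTCC (NF-κB), GAAANNGAAA (ISRE) and TTCNNNGAA (GAS), which 5.37%, 3.92% and 8.87% of windows held. The general sites TGACGTCA (CRE) and CACGTG (E-box) were searched too, and 1.83% and 6.42% of windows held them. None of these 5 was matched in the windows of Ass1, Gch1, Asl, Odc1, Nos3, Gucy1a3 or its partner Gucy1b3, which says only that these letters are not in these windows.

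Among nitric oxide synthases, Nos3, the endothelial enzyme, was scarce but higher. Nos3 was at 0.805, 0.537 and 0.485 CPM in Vector, from 11, 8 and 7 counts, and at 3.02, 2.34 and 2.85 CPM in the libraries labelled FTO, from 43, 31 and 51 counts. The highest Vector library stood well under the lowest library labelled FTO. On the log2 scale the change was 2.17 (SE 0.292, adjusted p = 9.9e-06 in edgeR), a 4.49-fold rise with a 95% interval from 2.92 to 6.92. Since Nos3 cleared the filter only through the libraries labelled FTO, its direction was fixed. Nos3 overlaps Atg9b in the annotation, and Atg9b had at most 3 counts in any library. Nos1, the neuronal synthase, was listed at 0 in all 6 libraries, where a count of 0 allows up to 0.168 to 0.227 CPM. A 0 in these files need not mean that a gene is silent, since the chaperone gene Hsp90aa1, which cells in general express, had at most 2 counts in any library.

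Endothelial markers were also low and moved with Nos3 in part. Of 9 markers, 7 were tested, of which Cdh5, Tek, Kdr and Egfl7 were higher, Esam and Erg lower and Tie1 not called. Their summed level was 38.8 to 40.2 CPM in Vector and 59.5 to 64.3 CPM in the libraries labelled FTO, and Emcn was at 0 in all Vector libraries. The part of endothelial cells in the rise of Nos3 was not tested. Of the protein partners of the synthases, Nosip, which binds the endothelial enzyme, rose from 31.2 ± 1.30 to 46.3 ± 5.40 CPM (log2 fold change 0.56, SE 0.0813, adjusted p = 2.0e-05 in edgeR). Cav1, the caveolar protein that holds the endothelial enzyme inactive, fell from 405 ± 6.12 to 268 ± 9.47 CPM (log2 fold change -0.60, SE 0.0413, adjusted p = 4.8e-09 in edgeR). On that list 4 of 8 genes were tested, 1 was higher, 2 were lower and Nostrin was not called. Among all tested genes, 65.9% were called, 33.2% as higher and 32.8% as lower. The median log2 fold change of the list was -0.35.

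Enzymes of methylarginine metabolism moved both ways. Of 4 tested genes, Prmt5, a methyltransferase that forms symmetric dimethylarginine, was higher by 0.42 (SE 0.0522, adjusted p = 4.4e-06 in edgeR) on the log2 scale. Ddah1, which breaks down asymmetric dimethylarginine, an inhibitor of the synthases, was abundant and fell from 659 ± 13.6 to 315 ± 12.2 CPM (log2 fold change -1.06, SE 0.0418, adjusted p = 4.6e-12 in edgeR). Ddah2, a relative of Ddah1, was lower by -0.26 on the log2 scale (adjusted p = 0.0403 in edgeR), and this call ended in 5 of the 13 alternatives, DESeq2 and the fits without Vector replicate 2, Vector replicate 3 or FTO replicate 3 among them, where the adjusted p reached 0.168. Prmt1 was not called (adjusted p = 0.0638 in edgeR).

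Downstream of nitric oxide, the guanylate cyclase fell. Gucy1a3, now named Gucy1a1, encodes the α1 subunit of soluble guanylate cyclase, the receptor of nitric oxide. It was at 38.6, 38.6 and 39.5 CPM in Vector and at 7.65, 6.19 and 7.32 CPM in the libraries labelled FTO. The Vector libraries were nearly equal, and all 3 lay above every library labelled FTO. The log2 fold change of Gucy1a3 was -2.46 (SE 0.0905, adjusted p = 2.2e-12 in edgeR), a 5.49-fold decrease with a 95% interval from 4.80 to 6.27, and 2.05% of tested genes had a lower value.

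Gucy1b3, now Gucy1b1, encodes the β1 subunit with which α1 pairs, and lies next to Gucy1a3 on the chromosome among protein-coding genes. It fell from 73.4 ± 3.10 to 16.4 ± 2.96 CPM, means and SDs of 3 libraries (log2 fold change -2.14, SE 0.0938, adjusted p = 1.8e-11 in edgeR). The ratio of Gucy1a3 to Gucy1b3 counts was 0.522, 0.551 and 0.518 in Vector and 0.478, 0.451 and 0.373 in the libraries labelled FTO. The ratios did not overlap but moved little, with means of 0.530 and 0.434 and an exact permutation p of 0.1, the smallest possible. Gucy1a2, the alternative α2 subunit, was lower as well, by -2.25 (SE 0.279) on the log2 scale from a mean of 29.7 counts, and passed the filter only through the Vector libraries.

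Both promoter windows are shown because the subunits fell together. Gucy1a3 lies at chr2:169779574-169779873 and Gucy1b3 at chr2:169696938-169697237, both on the minus strand of GRCr8, with capitals as above.
Gucy1a3: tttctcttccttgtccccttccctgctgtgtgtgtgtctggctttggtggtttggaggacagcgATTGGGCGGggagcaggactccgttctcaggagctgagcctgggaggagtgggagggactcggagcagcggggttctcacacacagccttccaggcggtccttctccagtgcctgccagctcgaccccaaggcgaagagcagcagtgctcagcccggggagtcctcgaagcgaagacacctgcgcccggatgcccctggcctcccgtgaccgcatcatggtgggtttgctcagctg
Gucy1b3: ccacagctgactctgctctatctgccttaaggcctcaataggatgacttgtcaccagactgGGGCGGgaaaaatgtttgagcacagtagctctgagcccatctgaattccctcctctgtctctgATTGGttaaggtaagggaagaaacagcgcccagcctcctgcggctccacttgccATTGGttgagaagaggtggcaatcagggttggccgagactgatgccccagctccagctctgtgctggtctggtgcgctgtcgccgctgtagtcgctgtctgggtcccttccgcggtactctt

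Each window held a GC box on the gene's strand, from -183 to -178 in Gucy1a3 and from -189 to -184 in Gucy1b3, and CCAAT boxes on the opposite strand. The CCAAT box of Gucy1a3, from -186 to -182, overlapped its GC box, while those of Gucy1b3 lay from -126 to -122 and from -72 to -68.

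The cGMP list, which includes Gucy1b3 and Gucy1a2, was lower for the most part. Of its 9 tested genes, 7 were lower, Gucy1b3 and Gucy1a2 among them, Pde9a was higher and Pde5a was not called. Among all tested genes, 65.9% were called and 32.8% were lower. Gucy1a2 passed the filter only through the Vector libraries and Pde9a only through the libraries labelled FTO, which fixes their direction. The median log2 fold change of the list was -0.71, against 0.00 over all tested genes. The calls of the phosphodiesterase genes Pde2a and Pde3a, at adjusted p = 0.0448 and 0.0277 in edgeR, ended in 8 and 4 of the 13 alternatives, and the list had 6 to 8 calls over them, with 6 without Vector replicate 2, Vector replicate 3 or FTO replicate 1. Mrvi1, a substrate of cGMP-dependent protein kinase that restrains calcium release, fell from 59.6 ± 0.118 to 12.8 ± 0.587 CPM (log2 fold change -2.21, SE 0.0689, adjusted p = 2.7e-13 in edgeR). Vasp, an actin regulator phosphorylated by the same kinase, changed by -0.71 (SE 0.0407) on the log2 scale. Pde5a, the phosphodiesterase that degrades cGMP and is the target of sildenafil, was at 6.55 ± 0.409 and 6.77 ± 1.07 CPM (adjusted p = 0.753 in edgeR).

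Mural and smooth-muscle markers were checked because such cells are rich in this cyclase. Of 9 markers, 8 were tested. Myh11, Notch3, Mcam, Cspg4 and Pdgfrb were lower and Kcnj8, Abcc9 and Des higher, with log2 fold changes from -3.91 (Notch3) to 4.89 (Kcnj8). The summed level was 1982 to 2045 CPM in Vector and 1367 to 1451 CPM in the libraries labelled FTO, and none was at 0 in all libraries of a group. The part of such cells in the fall of the cyclase was not tested.

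The arginine transporters changed in opposite directions. Slc7a2, the transporter CAT-2, was at 51.3, 54.7 and 56.0 CPM in Vector and at 86.1, 78.1 and 84.2 CPM in the libraries labelled FTO, with no overlap. Its log2 fold change was 0.62 (SE 0.0582, adjusted p = 1.9e-07 in edgeR), a 1.53-fold rise with a 95% interval from 1.41 to 1.67. Slc7a1, the general transporter CAT-1, fell from 116 ± 4.63 to 55.6 ± 1.26 CPM, means and SDs of 3 libraries (log2 fold change -1.06, SE 0.0518, adjusted p = 7.1e-11 in edgeR). The ratio of Slc7a2 to Slc7a1 counts was 0.463, 0.470 and 0.467 in Vector and 1.51, 1.41 and 1.54 in the libraries labelled FTO, 3.19-fold higher on average, with an exact permutation p of 0.1, the smallest possible. These ratios are not corrected for transcript length, so they compare the groups and not the levels of both genes.

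Of the 7 transport genes other than Slc7a2, 6 were lower, 0 were higher and Slc25a2 was not called, where 65.9% of all tested genes were called and 32.8% were lower. The median log2 fold change of the list was -0.85, against 0.00 over all tested genes. Slc7a3, the transporter CAT-3, fell most, from 36.8 ± 1.73 to 2.20 ± 0.225 CPM (log2 fold change -4.05, SE 0.113, adjusted p = 7.0e-14 in edgeR). Slc7a6 and Slc7a7, the light chains that exchange arginine, and Slc3a2, the heavy chain that both need, changed by -0.45, -1.24 and -0.85 on the log2 scale. Slc25a15, the mitochondrial ornithine carrier, changed by -0.83.

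**Figure D2:**
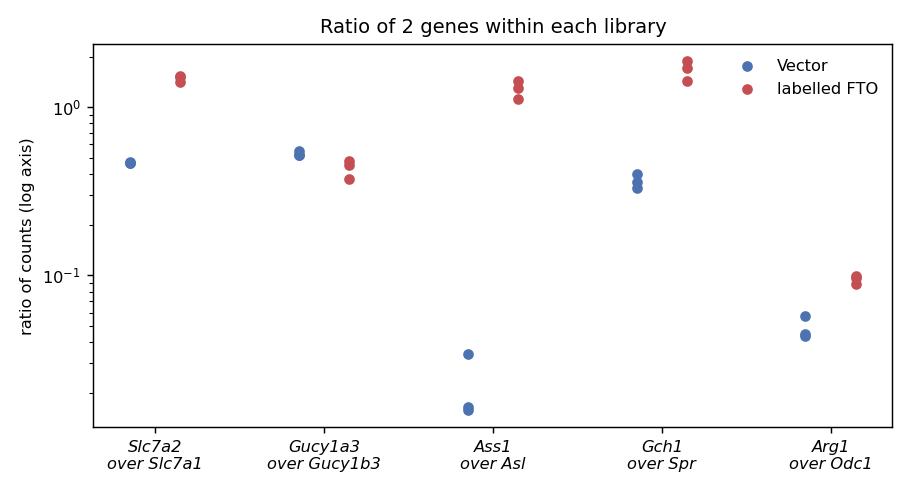
Ratio of the counts of 2 genes within each library, on a log axis, for 3 Vector libraries (blue) and 3 libraries labelled FTO (red). The ratio of Ass1 to Asl moved most, from 0.0221 to 1.29 on average, and that of Gucy1a3 to Gucy1b3 least, from 0.530 to 0.434.

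Of the arginases, Arg1 was called as higher and Arg2 was not called. Arg1, the cytosolic arginase of liver and of alternatively activated macrophages, was at 8.12, 10.4 and 7.76 CPM in Vector and at 14.7, 14.5 and 11.4 CPM in the libraries labelled FTO. The groups did not overlap, but Vector replicate 2 and FTO replicate 3 lay close together. The log2 fold change of Arg1 was 0.61 (SE 0.138, adjusted p = 0.00119 in edgeR), a 1.53-fold rise with a 95% interval from 1.25 to 1.88.

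Macrophage markers moved the other way for the most part. Of 13 markers, 12 were lower and Adgre1 was higher, with a median log2 fold change of -2.04. The summed level was 1848 to 1907 CPM in Vector and 310 to 349 CPM in the libraries labelled FTO, where C1qb and C1qc had 1 or 2 counts in each library and no marker was at 0 throughout. Their part in the level of Arg1 was not tested.

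Arg2, the mitochondrial arginase, was scarce, with 17 to 24 counts in each library. It was at 1.24, 1.41 and 1.66 CPM in Vector and at 1.40, 1.59 and 1.12 CPM in the libraries labelled FTO, and the groups overlapped. Its log2 fold change was -0.09 (SE 0.277, adjusted p = 0.778 in edgeR). The 95% interval of the fold change ran from 0.621 to 1.41, so a change within those bounds was not excluded. Arg2 overlaps Vti1b in the annotation, which was not called either (adjusted p = 0.287 in edgeR).

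Odc1, ornithine decarboxylase, which commits ornithine to polyamines, was the most abundantly counted of the 9 genes. Its level was 187, 180 and 174 CPM in Vector and 149, 151 and 128 CPM in the libraries labelled FTO, each lower than any Vector library. Odc1 had a log2 fold change of -0.34 (SE 0.0579, adjusted p = 9.9e-05 in edgeR), a 1.27-fold decrease with a 95% interval from 1.16 to 1.38. RefSeq names 10 Odc1 pseudogenes in the rat, and reads shared with them could be counted either way. The ratio of Arg1 to Odc1 counts went from 0.0486 ± 0.00790 to 0.0945 ± 0.00513, with an exact permutation p of 0.1, the smallest possible.

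**Figure D3:**
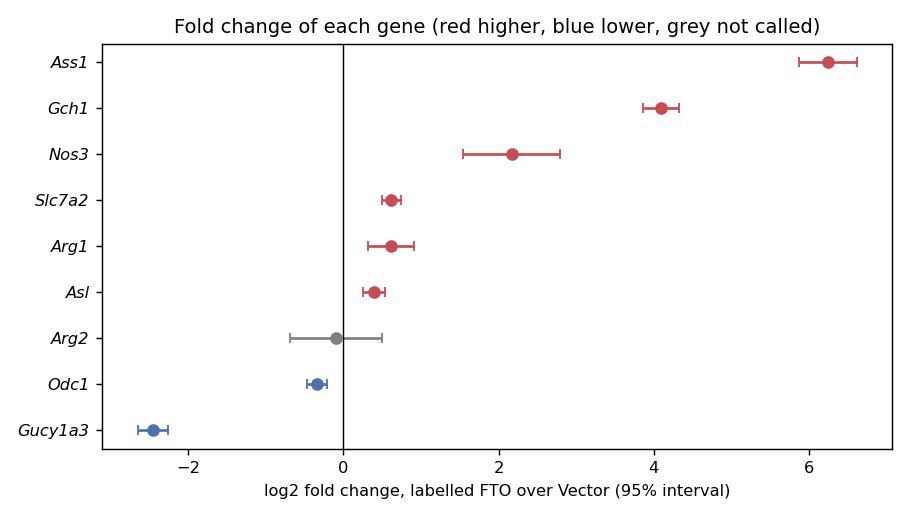
Log2 fold change (libraries labelled FTO relative to Vector) for the 9 genes, with 95% intervals from the edgeR fit, in red where higher, blue where lower and grey where not called at an adjusted p under 0.05. The values run from -2.46 (Gucy1a3) to 6.25 (Ass1), and the interval of Arg2 crosses 0.

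On the polyamine list, 10 genes were tested, 3 were higher, 4 were lower and 3 were not called, near the 65.9% called over all tested genes, with a median log2 fold change of -0.08. The calls of Paox, a polyamine oxidase, and Azin2, at adjusted p = 0.0493 and 0.0272 in edgeR, ended in 7 and 4 of the 13 alternatives, and 5 genes of the list passed in DESeq2. Sat1, which acetylates polyamines for breakdown and export, rose from 142 ± 4.92 to 216 ± 6.50 CPM (log2 fold change 0.61, SE 0.0449, adjusted p = 1.1e-08 in edgeR). Amd1, which supplies the aminopropyl donor for synthesis, fell from 159 ± 2.10 to 110 ± 2.20 CPM (log2 fold change -0.53, SE 0.0432, adjusted p = 3.1e-08 in edgeR). The antizyme Oaz1, which targets ornithine decarboxylase for degradation, was higher by 0.30, and Azin1, which blocks antizyme, was lower by -0.51 on the log2 scale.

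Among urea cycle, ornithine and creatine enzymes, 5 of 9 genes were tested. Gatm, which moves the amidino group of arginine to glycine in creatine synthesis, fell from 25.0 ± 1.02 to 2.94 ± 0.529 CPM (log2 fold change -3.10, SE 0.126, adjusted p = 7.4e-12 in edgeR). Gamt, which completes creatine, changed by -0.39, and Oat, which links ornithine to proline, by -0.51 on the log2 scale. Pycr1, the last enzyme of proline synthesis, was lower by -2.87, and Nags, whose product activates the urea cycle, was higher by 2.77 from a mean of 40.3 counts and past the filter only through the libraries labelled FTO. Both were chosen after their values were seen. Cps1 and Aldh18a1 had at most 1 count in any library and Otc at most 17. As with Hsp90aa1, so low a count need not mean that a gene is silent.

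**Figure D4:**
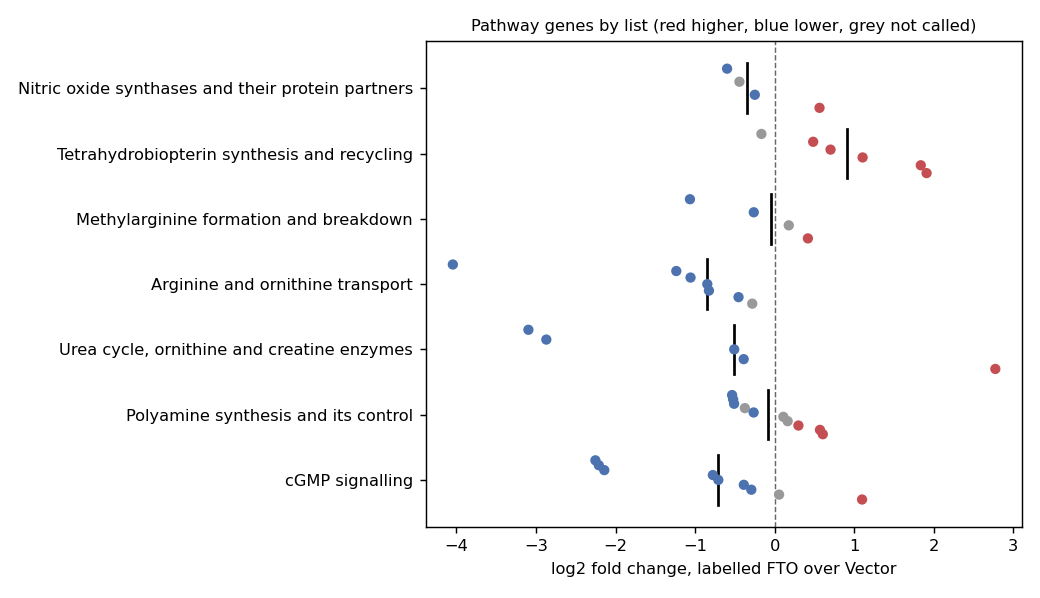
Log2 fold change (libraries labelled FTO relative to Vector) for each of the 45 tested pathway genes, in 7 lists, with list medians as black bars, in red where higher, blue where lower and grey where not called. Transport and cGMP genes lie mostly to the left of 0, with medians of -0.85 and -0.71, and tetrahydrobiopterin genes to the right, with a median of 0.90.

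Over the 7 lists, 57 genes were chosen, 45 were tested, 12 were higher, 25 lower and 8 not called, and Nos1ap and Prkg1 are not analysed here. Over all tested genes 33.2% were higher and 32.8% lower. Of the 41 that cleared the filter in both groups, 33 were called, 9 higher and 24 lower, 80.5% against 65.5% of such genes over the whole table. The median log2 fold change of the 45 was -0.37, against 0.00 over all tested genes. At least 2-fold changes were called in 14 of the 45, 9 lower and 5 higher, where 19.6% of all tested genes had one. Of the 41 cleared in both groups, 10 did, 8 lower and 2 higher, 24.4% against 15.5% of such genes. The lists were chosen with earlier results of these data known, so these shares do not test the lists against the whole table.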

How the data were processed

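RNA-seq counts of 6 NRCF libraries, 3 Vector and 3 labelled FTO by genotype, were used. The authors deposited raw counts, a whole number per gene symbol and library. The submitters' processing notes name Trimmomatic and rn6, and the aligner, counting program, annotation and use of strand are not given in the sources used here. Each library held 13178952 to 17857999 counts, and pairs of the same group were not duplicates (chi-square over its degrees of freedom 1.56 to 8.02). No molecular identifiers are mentioned, and the limit of 3 counts for a 0 covers counting error alone.

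Genes were kept with filterByExpr (minimum count 10) and compared with the quasi-likelihood test of edgeR 4.0.16 in R 4.3.3, two-sided, TMM-scaled, with Benjamini-Hochberg adjustment over 12941 genes and a threshold of 0.05. The SE was derived by dividing each log2 change by the root of its F. The procedure was tested on simulated data. Far fewer genes were changed there than were called here, and by less than the largest changes here, so that test does not cover this setting. Alternatives were DESeq2 1.42.0, limma-voom (limma 3.58.1), other scalings and filters, the replicate number as a block and leaving out each library. Genes and lists were chosen with earlier results of these data known. Named were all members, Fto, genes sharing a step with a member, and, per list, the largest increase and decrease among called genes with no overlap and a mean of at least 100 counts. Any other gene was picked with its values known, and some listed genes are not reported by name here. Promoter sequences and overlapping genes are those of RefSeq for GRCr8.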

Additional observations from a re-analysis of the deposited data

How the results depend on the processing

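Of the 9 measured genes, 8 passed the adjusted threshold and 4 also changed at least 2-fold under each of the 13 alternatives, the replicate block included. Both counts include Ass1 and Nos3, which cleared the filter only through the libraries labelled FTO, so they are no separate support for the direction of these genes. Of the 37 pathway genes called, 32 were called under every alternative and 5 were not. Ddah2, Paox, Azin2, Pde2a and Pde3a lost their calls in 5, 7, 4, 8 and 4 alternatives, with the adjusted p reaching 0.168, 0.174, 0.125, 0.140 and 0.106, and the cause was not tested. Calls thus ranged from 2 to 4 for methylarginine genes, 5 to 7 for polyamine genes and 6 to 8 for cGMP genes. Fto passed under none, with a log2 fold change of 0.0508 to 0.0780 and an adjusted p of 0.182 to 0.450. Across 21 single genes, 271 values kept their direction and their side of the threshold and 2 changed sign. Both were of Arg2, at 0.0185 without Vector replicate 3 and 0.0465 without FTO replicate 3 on the log2 scale. Leaving out 1 library at a time gave -0.20 to 0.05 for Arg2, its adjusted p ran from 0.603 to 0.967 over the alternatives, and the cause was not tested. Depth limits Arg2, Nos3 and Ass1, whose lowest libraries held 17, 7 and 8 counts. The deviations of same-numbered libraries correlated at 0.00284, -0.0693 and 0.0207, so no pairing by number was seen. This cannot exclude that the libraries were prepared in pairs. With the replicate block, the calls of Ddah2, Paox and Pde2a ended and 8399 genes passed over the whole table.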
